A study of Homo sapiens with 24 samples.

Results

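The E2F transcription factors E2F1, E2F2, E2F3, E2F6, E2F7 and E2F8 and the retinoblastoma gene RB1 were followed in LNCaP, an established line of prostate cancer cells, after knockdown of the long noncoding RNAs TAPIR-1 and TAPIR-2. Members were all probes whose RefSeq accession belongs to one of these 7 genes. This gave 11 probes of the 7 genes on each array version, out of 20992 genes named through RefSeq on 50599 probes at 24 h and 22439 genes on 58201 probes at 48 h. Cells were electroporated with si-A1, which targets TAPIR-1, with si-A2, which targets TAPIR-2, or with a scrambled control siRNA (scramble), and RNA was taken after 24 h or 48 h from 4 biological replicates per siRNA and time point. All groups share the same cell line and the same transfection, and each lncRNA was targeted here by a single siRNA, so that the effect of an siRNA sequence and that of its target cannot be told apart. Agilent arrays in one colour held 1 sample each, with a newer version of the array at 48 h, so levels were not compared between time points. Unless stated otherwise, values below are log2 processed intensities after quantile normalization within a time point. A difference is a log2 fold change from limma with the slide as an additive term. A probe was called when its adjusted p was below 0.01 and its log2 fold change was 0.5 or more in size, and a gene was counted by its brightest probe. In whole cultures, fewer cells of a kind and less RNA per cell cannot be told apart. Both siRNAs were compared with the same scramble arrays, so their results are not independent of each other.

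In the cell cycle, E2F1, E2F2 and E2F3 activate genes of DNA replication when they pair with a DP protein and are not held by the retinoblastoma protein, the product of RB1, which keeps resting cells in G1. Cyclin-dependent kinases phosphorylate the retinoblastoma protein and thereby free the activators, whose targets include E2F1, E2F2 and E2F7 themselves. E2F7 and E2F8 are the atypical members, which bind DNA without a DP partner and repress the same targets later in S phase, and E2F6 represses as part of a Polycomb complex without binding the retinoblastoma protein.

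The 150 bases before the RefSeq start are shown for the activators and for E2F7, because E2F1, E2F2 and 1 of the 2 E2F7 probes fell and such promoters are known targets of E2F. They come from RefSeq on GRCh38.p14 and are written 5′ to 3′ on the strand of the gene. Capitals mark the E2F consensus, searched on both strands in its 4 spellings TTTCCCGC, TTTCGCGC, TTTGCCGC and TTTGGCGC, which differ only within the same 2 bases. A match on one strand may overlap one on the other. E2F1 lies at chr20:33675477-33686385 on the minus strand (window chr20:33686386-33686535), E2F2 at chr1:23505212-23531233 on the minus strand (window chr1:23531234-23531383), E2F3 at chr6:20401879-20493714 on the plus strand (window of its first start chr6:20401729-20401878) and E2F7 at chr12:77021251-77065569 on the minus strand (window chr12:77065570-77065719).
E2F1: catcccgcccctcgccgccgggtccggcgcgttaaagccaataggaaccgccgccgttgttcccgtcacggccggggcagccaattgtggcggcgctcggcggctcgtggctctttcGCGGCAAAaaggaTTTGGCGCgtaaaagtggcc
E2F2: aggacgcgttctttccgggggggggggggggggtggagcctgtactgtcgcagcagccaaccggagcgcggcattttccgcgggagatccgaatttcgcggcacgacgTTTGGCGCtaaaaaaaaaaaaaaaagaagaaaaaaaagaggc
E2F3: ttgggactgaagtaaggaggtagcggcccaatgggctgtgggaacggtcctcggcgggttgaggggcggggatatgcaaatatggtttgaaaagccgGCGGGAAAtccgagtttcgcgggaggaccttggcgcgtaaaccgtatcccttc
E2F7: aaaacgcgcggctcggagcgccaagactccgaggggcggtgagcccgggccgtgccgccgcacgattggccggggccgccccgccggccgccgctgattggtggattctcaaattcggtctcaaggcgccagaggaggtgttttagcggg

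The E2F1 window held 2 matches, TTTGCCGC on the opposite strand at 33 to 26 bases before the start and TTTGGCGC at 20 to 13 bases before it. The E2F2 window held TTTGGCGC at 42 to 35 bases before the start. The E2F3 window held TTTCCCGC on the opposite strand at 53 to 46 bases, and the window of a second E2F3 start held no match. No match was found in the windows of E2F7 and E2F6 or in that of the RB1 entry, which lies inside the gene. Of all 35116 RefSeq starts, 632 (1.8%) held a match in the same window. A match is a string of letters and was not tested as a binding site.

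The number of arrays, and how far a probe stood over its background, limit the precision here. The median processed intensity of an array ranged from 24.4 to 57.2 at 24 h and from 20.4 to 32.2 at 48 h, and between 58.5% and 71.7% of the spots of an array were well above background at 24 h. The si-A2 array of replicate 2 at 48 h, with a median of 13.9, was left out, which leaves 3 si-A2 arrays at 48 h and 23 arrays in all. At each time point the arrays lay on 2 slides, and each slide held all 3 siRNAs. The LNCaP markers KLK3, KLK2, TMPRSS2, FOLH1 and HOXB13 each had a probe well above background on all 4 scramble arrays at both time points. Of the LNCaP markers, KLK2 was called lower after si-A1 at 48 h (-1.07, adjusted p = 0.00063) and higher in si-A2 than in si-A1 cells (0.92, adjusted p = 0.00585), and no other was called in any comparison. Of the 8 markers of other cell types, KRT5 and COL1A2 were not well above background on any scramble array, while PTPRC, VWF, PECAM1 and KRT14 each had a probe that was on at least 3 of 4 arrays, and none of the 8 was called in any comparison (at an unadjusted p below 0.05, at most 1 of the 6 tested). The targeted transcripts could be checked only in part. The 24 h array carries 1 probe for TAPIR-2, which was lower by 0.97 on the log2 scale after si-A2 (difference -0.97, 4.07 ± 0.74 against 5.03 ± 0.18, SD, n = 4, two-sided exact permutation p = 0.0286, the smallest that 4 against 4 arrays allow, limma adjusted p = 0.23) and by 0.39 after si-A1 (difference -0.39, exact permutation p = 0.0571). At 48 h the same probe differed by 0.04 after si-A2 (exact permutation p = 0.943). A second TAPIR-2 probe of the 48 h array was well above background on none of its arrays, and TAPIR-1 had no matched probe.

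E2F1, the activator that drives entry into S phase, was lower after both siRNAs at both time points, and the decrease after si-A2 at 48 h was not called. On the 4 scramble arrays at 24 h, its log2 intensity was 8.40, 8.29, 8.57 and 7.92. After si-A1 it was 6.15, 5.81, 5.92 and 5.47, and after si-A2 it was 5.42, 4.99, 4.87 and 4.98. The 3 groups did not overlap, with scramble highest and si-A2 lowest. E2F1 thus fell 5.50-fold after si-A1 (log2 fold change -2.46, SE 0.18, adjusted p = 6.28e-05) and 9.37-fold after si-A2 (-3.23, SE 0.18, adjusted p = 1.24e-05). The difference between the siRNAs was -0.77 (95% interval -1.17 to -0.37) and was not called (adjusted p = 0.0715). At 48 h, E2F1 was at 8.32, 8.01, 8.19 and 8.76 on the scramble arrays, at 5.28, 5.68, 5.43 and 6.15 after si-A1, and at 7.16, 6.58 and 7.33 after si-A2. Again no groups overlapped, but si-A2 now lay between scramble and si-A1. The decrease after si-A1 was 6.43-fold (-2.68, SE 0.24, adjusted p = 0.000111), while the value after si-A2 was -1.33 (95% interval -1.91 to -0.75, adjusted p = 0.0255), past an adjusted p of 0.05 but not past 0.01. E2F1 was read from 10 spots of 1 probe on each array, the most spots of any member together with RB1.

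E2F2, the second activator and a target of E2F1, showed the same order of groups, and its low values reached the background. Its scramble arrays at 24 h were at 6.15, 6.19, 6.43 and 5.85. After si-A1 the arrays were at 3.89, 3.90, 4.11 and 3.88, of which 2 were well above background, and after si-A2 at 3.13, 1.76, 3.19 and 2.49, none of them well above background. E2F2 fell 4.63-fold after si-A1 (-2.21, SE 0.28, adjusted p = 0.0017). After si-A2 it was at least 5.49-fold lower (adjusted p = 8.39e-05), a bound that sets the scramble mean against the lowest signal among probes well above background on each si-A2 array. At 48 h the scramble arrays were at 6.21, 5.83, 5.38 and 5.91, the si-A1 arrays at 1.57, 3.01, 1.85 and 1.63 and the si-A2 arrays at 4.85, 4.15 and 5.18. No si-A1 array was then well above background, all 3 si-A2 arrays were, and the 3 groups did not overlap. E2F2 was at least 6.19-fold lower after si-A1 at 48 h (adjusted p = 9.17e-05), and the value after si-A2 was -1.04 (95% interval -1.83 to -0.25) and not called (adjusted p = 0.153).

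E2F3, the remaining activator, was not called in any comparison. Its brighter probe (A_33_P3418516) was at 7.61 ± 0.23 on the scramble arrays at 24 h (SD, n = 4), at 7.38 ± 0.11 after si-A1 and at 7.55 ± 0.14 after si-A2, so the groups overlapped. The log2 fold changes were -0.23 (95% interval -0.55 to 0.10) after si-A1 and -0.06 (-0.38 to 0.26) after si-A2 at 24 h. At 48 h they were -0.22 (-0.51 to 0.08) and -0.03 (-0.35 to 0.30). The lowest bound of these intervals, -0.55, lies above every called value of E2F1 and E2F2. The dimmer probe (A_23_P385034) gave differences between -0.49 and 0.06 from scramble, with groups that overlapped in every comparison.

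**Figure D1:**
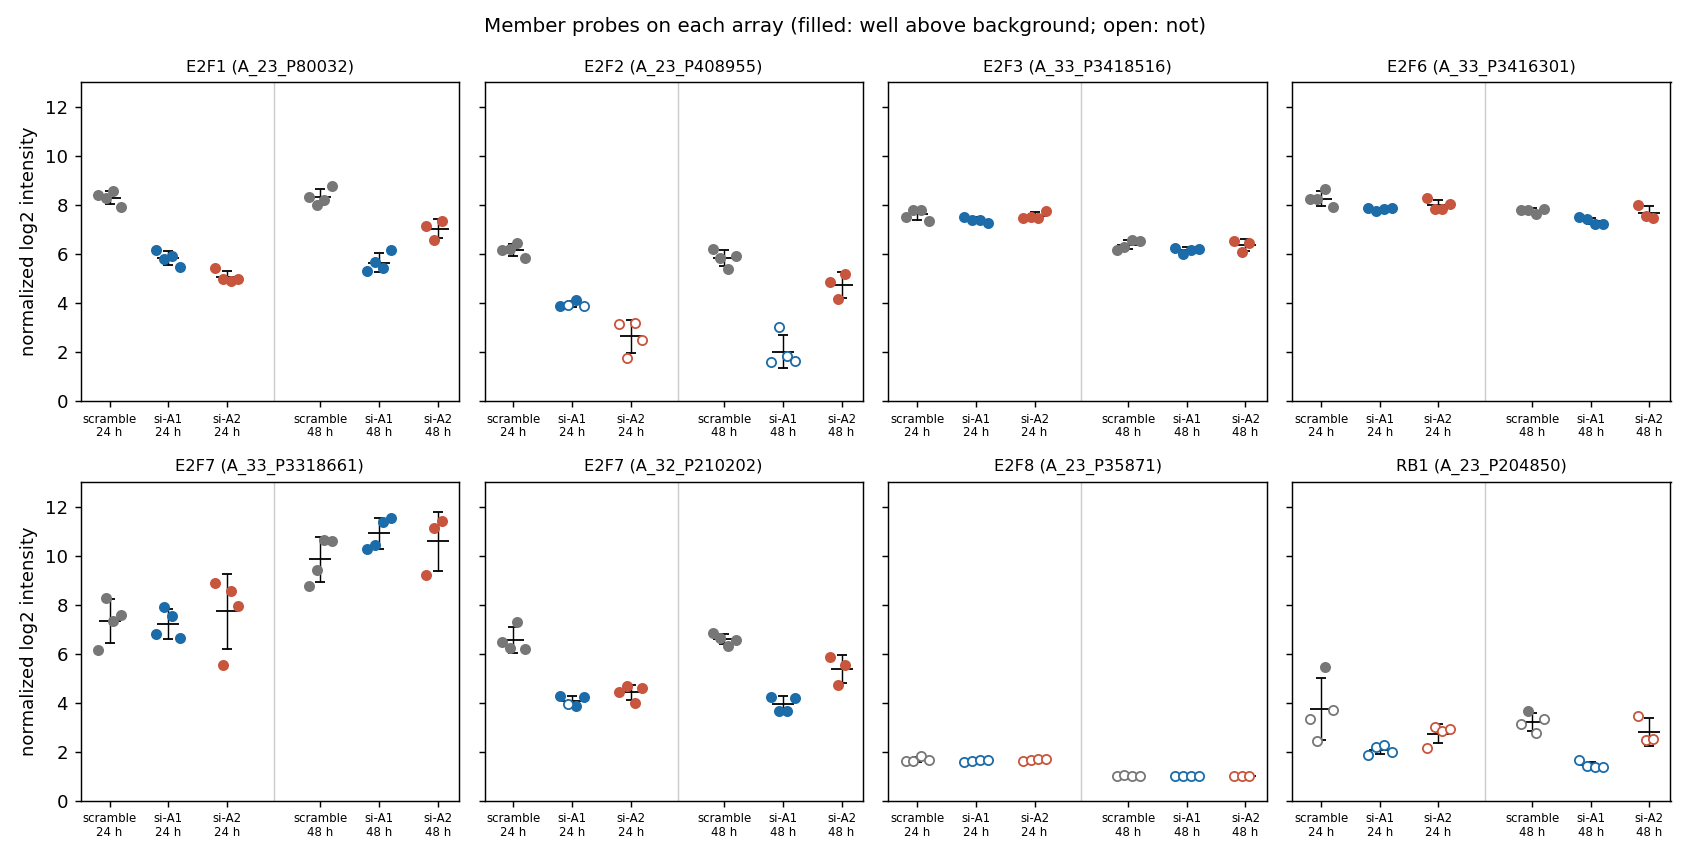
Normalized log2 intensity of 8 member probes on each array, by siRNA and time point, with the mean (horizontal mark) and SD of each group. Filled points are arrays on which the probe was well above background and open points are arrays on which it was not. E2F1, E2F2 and the E2F7 probe A_32_P210202 sit lower after both siRNAs than on the scramble arrays, E2F3 and E2F6 sit close together in all groups, and E2F8 is at the background throughout.

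E2F7, an atypical repressor that is itself switched on by E2F1, was read by 2 probes that went different ways. Probe A_32_P210202 was at 6.46, 6.22, 7.31 and 6.18 on the scramble arrays at 24 h, at 4.26, 3.93, 3.85 and 4.22 after si-A1 and at 4.45, 4.69, 3.99 and 4.58 after si-A2. Every knockdown array was below every scramble array, and the knockdown groups overlapped each other. This probe fell 5.57-fold after si-A1 (-2.48, SE 0.26, adjusted p = 0.00049) and 4.33-fold after si-A2 (-2.11, SE 0.26, adjusted p = 0.00135). At 48 h it was at 6.83, 6.63, 6.32 and 6.57 on the scramble arrays, at 4.24, 3.67, 3.67 and 4.19 after si-A1, and at 5.85, 4.73 and 5.54 after si-A2. The groups did not overlap at 48 h, with si-A2 between the others. The decrease was 6.27-fold after si-A1 (-2.65, SE 0.23, adjusted p = 9.49e-05), and the value after si-A2 was -1.16 (95% interval -1.72 to -0.61, adjusted p = 0.0355), not called.

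The other E2F7 probe, A_33_P3318661, carries the same RefSeq accession and is the brighter one, so it stands for E2F7 in the counts. It spread widely within groups at 24 h, from 6.14 to 8.29 on the scramble arrays, from 6.62 to 7.91 after si-A1 and from 5.52 to 8.90 after si-A2, with all groups overlapping. Its differences from scramble were -0.11 after si-A1 (95% interval -1.64 to 1.43) and 0.39 after si-A2 (-1.14 to 1.93). At 48 h it was at 8.78, 9.40, 10.65 and 10.59 on the scramble arrays, at 10.29, 10.44, 11.39 and 11.54 after si-A1 and at 9.20, 11.12 and 11.42 after si-A2. Replicates 1 and 2, which share a slide, were lower than replicates 3 and 4 after scramble and si-A1. For si-A2 only replicate 1 remained on that slide, and it was lower than replicates 3 and 4. With the slide in the model the probe was called higher after si-A1 (1.06, SE 0.20, adjusted p = 0.00658), but without the slide term (adjusted p = 0.314), with the slide as a random block (adjusted p = 0.0694) and without 7 of the 11 arrays in turn it was not called. The mean of both probes fell instead (-0.79, adjusted p = 0.00472). Which transcript each probe reads was not tested, so the direction of E2F7 as a gene is unresolved. The decrease rests on A_32_P210202 alone.

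E2F8, the other atypical repressor, was not measurable here. Its 1 probe lay between 1.59 and 1.83 on all 12 arrays at 24 h and between 1.00 and 1.04 on the 11 arrays at 48 h, was well above background on none of them and was not tested. E2F6, the repressor that acts without the retinoblastoma protein, was read by 3 probes, and none was called. Its brightest probe (A_33_P3416301) was at 8.26 ± 0.31 on the scramble arrays at 24 h, at 7.83 ± 0.05 after si-A1 (SD, n = 4) and between 7.83 and 8.27 after si-A2. The differences were -0.43 (95% interval -0.81 to -0.05, adjusted p = 0.311) and -0.26 (-0.65 to 0.12). At 48 h the value after si-A1 was -0.41 (-0.63 to -0.19, adjusted p = 0.0177) with no overlap of the groups, and after si-A2 it was -0.05 (-0.28 to 0.19). Over all 3 probes, both time points and both siRNAs the differences ran from -0.47 to -0.05, so every one was below 0 and none reached the 0.5 that a call requires.

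RB1, the brake on the activators, was close to the background. Its probe was at 3.34, 2.45, 5.46 and 3.69 on the scramble arrays at 24 h, at 1.88, 2.18, 2.25 and 1.98 after si-A1 and at 2.15, 3.00, 2.85 and 2.93 after si-A2. Only 1 scramble array was well above background and no knockdown array was. Set against the lowest signal well above background, the scramble mean gave bounds of 1.11-fold after si-A1 and 1.03-fold after si-A2. That mean includes only 1 array well above background, so these bounds measure no decrease. Neither difference was called (adjusted p = 0.0934 and 0.397). At 48 h it was at 3.11, 3.65, 2.75 and 3.34 on the scramble arrays, at 1.66, 1.40, 1.35 and 1.38 after si-A1 and at 3.46, 2.46 and 2.52 after si-A2. As at 24 h, all si-A1 arrays lay below all scramble arrays. Only 1 scramble array and no knockdown array was well above background, and the bound after si-A1 was 1.01-fold. The probe was above the filter threshold on only 1 array, so it was not tested in the main fit. Without that filter the fitted si-A1 difference was -1.76 (limma adjusted p = 0.00109), a value between signals close to the background. No size of a change in RB1 can be given from these arrays.

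The members and the gene lists below were chosen with earlier results of these data known, so their counts are a description and no independent support. Counted by the brightest probe, 2 of the 6 member genes tested were called after si-A1 at 24 h, where 1.16% of all 43957 probes tested were called. After si-A2 it was 2 of 6 against 0.976%. In both cases these were E2F1 and E2F2, and all were lower. Between the siRNAs at 24 h none was called (2 at an unadjusted p below 0.05, limma) against 0.419% of all probes. At 48 h, 3 of the 5 member genes tested were called after si-A1, against 7.65% of 40832 probes, and after si-A2 none was (2 at an unadjusted p below 0.05, limma) against 0.696%. The 3 genes were E2F1 and E2F2, which fell, and E2F7 by its brighter probe, which rose. These calls are not alike. E2F2 was above the filter threshold on 5 arrays and well above background on no si-A1 array, and the E2F7 call was lost without the slide term. Probe A_32_P210202 of E2F7 was called lower in addition in 3 of these 4 comparisons with scramble, all but si-A2 at 48 h. The median log2 fold change over all probes lay between 0.01 and 0.06 in these comparisons. Quantile normalization gives the arrays of a time point the same distribution, so this median cannot show whether all probes shifted together.

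**Figure D2:**
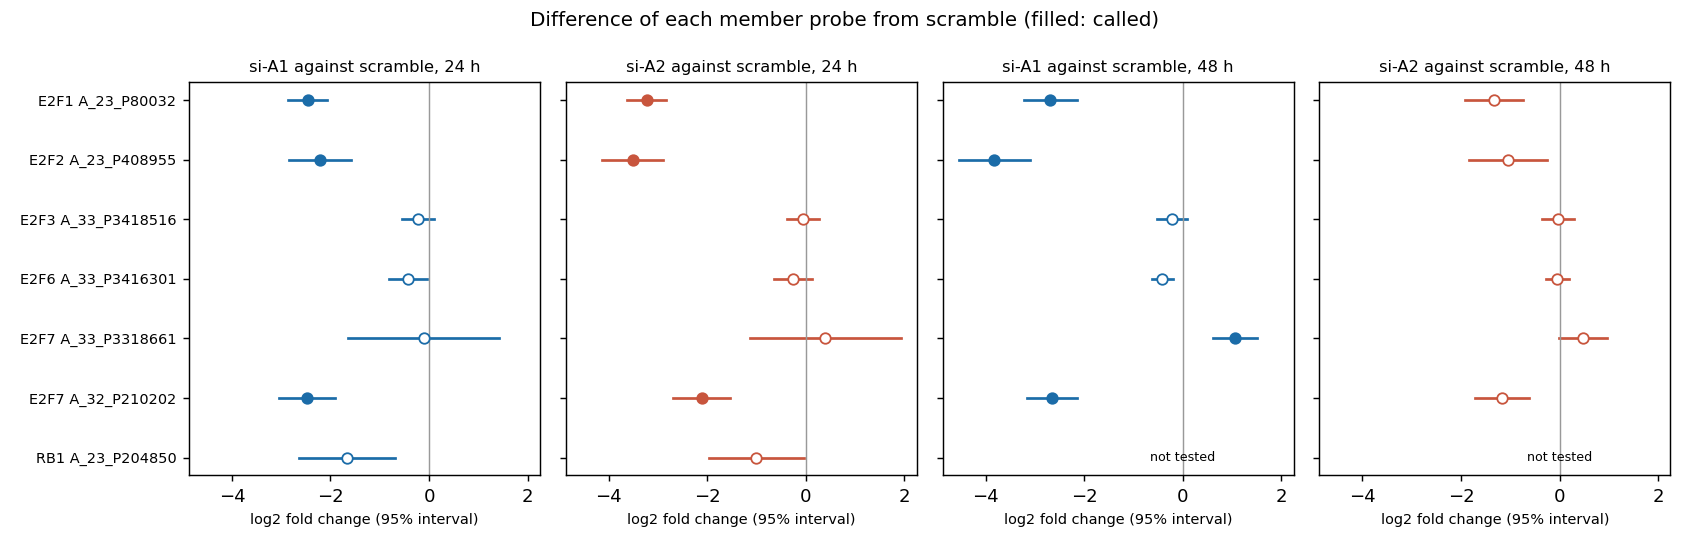
Log2 fold change from scramble of 7 member probes after each siRNA at each time point, with 95% confidence intervals from limma. Filled points were called (adjusted p below 0.01 and at least 0.5 in size). E2F1, E2F2 and the E2F7 probe A_32_P210202 lie left of 0 in all 4 panels and are called in 3 of them, and the intervals of E2F3 include 0 in all 4.

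These decreases had the same direction and similar size on each slide. For E2F1 at 24 h, the si-A1 and si-A2 differences from scramble were -2.37 and -3.14 within slide 1 and -2.55 and -3.32 within slide 2. For E2F2 they were -2.28 and -3.73 within slide 1 and -2.14 and -3.30 within slide 2. For the E2F7 probe A_32_P210202 they were -2.25 and -1.77 within slide 1 and -2.70 and -2.45 within slide 2, so each was below 0 on either slide. At 48 h the si-A1 differences were -2.68 and -2.68 for E2F1, -3.73 and -3.91 for E2F2 and -2.78 and -2.52 for that E2F7 probe, within slides 1 and 2. Each slide holds at most 2 arrays of a group, and no member was called on 1 slide alone. The size of the decreases depended on the background correction. With normexp, which adds an offset, the 24 h differences shrank to -1.66 and -1.99 for E2F1, to -0.75 and -0.91 for E2F2 and to -1.04 and -0.94 for that E2F7 probe, in the order si-A1 and si-A2, and all remained called. After si-A2 at 48 h, E2F1 was called under that correction (adjusted p = 0.00239), as was that E2F7 probe (-0.59, adjusted p = 0.00124). With the dim array kept in, the decreases after si-A1 at 48 h of E2F2 (adjusted p = 0.0112) and of that E2F7 probe (adjusted p = 0.0247) were no longer called.

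At 48 h the siRNAs themselves differed. E2F2 was at least 2.88-fold above its si-A1 level after si-A2 (adjusted p = 0.00278) and was the 1 member gene of 5 that was called, against 2.1% of all probes. The call was lost without any one of 4 arrays (si-A2 replicate 1 or 4, si-A1 replicate 3 or 4, adjusted p between 0.0104 and 0.0218). With normexp the difference was 0.48 (adjusted p = 0.006), below the size a call requires. Probe A_32_P210202 of E2F7 was 2.79-fold higher after si-A2 (1.48, SE 0.25, adjusted p = 0.00891), a call that held in only 1 of the 11 fits that left out 1 array. E2F1 differed by 1.35 (95% interval 0.78 to 1.93, adjusted p = 0.0161). In an alternative fit with the replicate number as a block instead of the slide it was called too (1.34, adjusted p = 0.00945), which made 2 member genes. Same-numbered samples deviated together at 48 h, but so did samples of 1 slide with other numbers.

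Whether an effect changed between the time points was examined with an interaction term, fitted on the 32930 probes that both array versions share and that passed the filter at both time points. For this fit the arrays of both time points were quantile-normalized together. Its values therefore need not equal the gap between the differences given above for each time point. For si-A2, E2F2 was the 1 member gene called of 5, against 0.0456% of all probes, with a smaller decrease at 48 h (adjusted p = 0.00805). Its fitted change of 2.83 on the log2 scale is not a measured size, because no si-A2 array was well above background at 24 h and the decrease there is known only as a bound. With the replicate block E2F1 was called as well (1.87, adjusted p = 0.00356), for which the value without the block was 1.89 (95% interval 1.22 to 2.55, adjusted p = 0.0247). E2F2 was no longer called when scaled on the 75th percentile (fitted change 2.45, adjusted p = 0.029), with normexp (0.55, adjusted p = 0.0585) or without background correction (0.64, adjusted p = 0.0337), and it was called in 5 of the 23 fits that left out 1 array. For the E2F7 probe A_32_P210202 the change was 1.04 (95% interval 0.25 to 1.83, adjusted p = 0.48). For si-A1 no member gene was called (1 at an unadjusted p below 0.05, limma) against 0.213% of all probes, with -0.28 for E2F1 (-0.91 to 0.36) and 0.07 for that E2F7 probe (-0.69 to 0.82). No size is given for E2F2, whose si-A1 arrays at 48 h were at the background. Time point cannot be told apart from array version. At 48 h the TAPIR-2 probe that was lower at 24 h differed by less than its spread, and its part in the smaller si-A2 values was not tested.

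**Figure D3:**
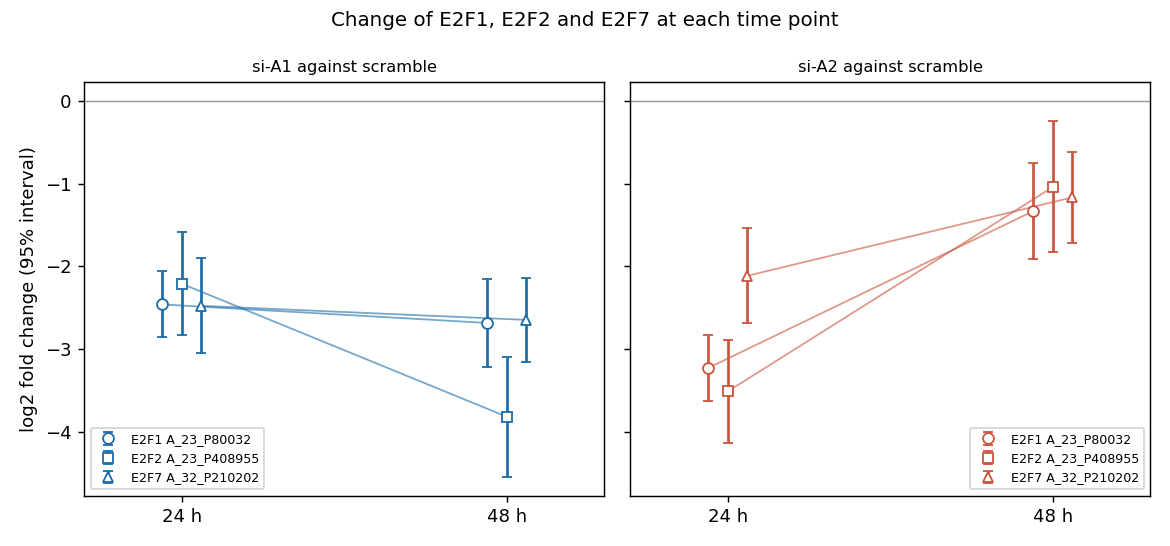
Log2 fold change from scramble of E2F1, E2F2 and the E2F7 probe A_32_P210202 at 24 h and 48 h, after si-A1 (left) and si-A2 (right), with 95% confidence intervals from limma. After si-A1 the values lie between -2.21 and -3.82 at both time points, and after si-A2 they move from between -2.11 and -3.51 at 24 h to between -1.04 and -1.33 at 48 h. The fitted E2F2 values after si-A2 at 24 h and after si-A1 at 48 h rest on arrays at the background.

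Among 7 partners and relatives, 1 was called after each siRNA at 24 h, 3 after si-A1 at 48 h and none after si-A2 at 48 h (3 at an unadjusted p below 0.05, limma). Of all probes, 1.16%, 0.976%, 7.65% and 0.696% were called in these 4 comparisons, si-A1 before si-A2 at each time point. E2F5, a repressor E2F that works with the pocket proteins, rose after si-A1 at 24 h (1.17, SE 0.16, adjusted p = 0.00224) and at 48 h (0.58, SE 0.11, adjusted p = 0.00654). After si-A2 its differences were 0.81 (adjusted p = 0.0248) and -0.01. RBL1, the pocket protein p107 and itself an E2F target, fell after si-A2 at 24 h (-0.94, SE 0.14, adjusted p = 0.00537), and its value after si-A1 was -0.74 (adjusted p = 0.0198). A second RBL1 probe, with another RefSeq accession, was called lower after si-A1 at 24 h (adjusted p = 0.00757) and at 48 h (adjusted p = 0.00267), with only 1 and 2 of the 4 si-A1 arrays well above background, and was at least 2.61-fold lower after si-A2 at 24 h (adjusted p = 0.000774). TFDP1, which encodes the DP partner of the activators, fell after si-A1 at 48 h by either probe (-0.64 and -1.54, adjusted p = 0.00239 and 5.46e-05), and at 24 h its brighter probe was at -0.97 (adjusted p = 0.0223). TFDP3, a DP family member, was called lower after si-A1 at 48 h (-1.22, SE 0.16, adjusted p = 0.000932). RBL2, the pocket protein p130, E2F4, its repressor partner, and TFDP2 were not called in any comparison with scramble, with differences between -0.31 and 0.66.

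Most genes of the G1/S transition that E2F factors are known to switch on were lower too. Of 45 such genes in a list from general knowledge, 44 were tested at 24 h and 42 at 48 h. The list was drawn up with earlier results of these data known, so its counts are a description and no independent support. None was called higher in any comparison with scramble. At 24 h, 28 were called lower after si-A1 (1.07% of all probes) and 31 after si-A2 (0.883%), with median log2 fold changes of -1.38 and -1.42 against 0.05 over all probes after each siRNA. At 48 h, 36 were called lower after si-A1 (4.67% of all probes; median -1.73). After si-A2 at 48 h it was 9 (0.583%; median -0.83), and with the replicate block 1. That count fell to between 0 and 4 when any 1 array was left out, although 40 of the 42 values were below 0. Between the siRNAs at 48 h, 19 of the 42 were called higher in si-A2 than in si-A1 cells and none lower. Of all 40832 probes, 571 were called higher and 285 lower in that comparison (2.1% in either direction).

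Of the targets called after si-A2 at 24 h, the 4 with the largest decrease were taken as examples, so their si-A2 values at 24 h are extreme by choice and their difference from 48 h supports nothing. CLSPN, the adaptor that activates CHEK1, was at least 14.3-fold lower after si-A2 at 24 h, and its other log2 fold changes were -3.72 after si-A1 at 24 h, -3.16 after si-A1 at 48 h and -1.09 after si-A2 at 48 h. DTL, a ubiquitin ligase subunit that removes the licensing factor CDT1, was at least 9.21-fold lower after si-A2, with -3.83, -3.37 and -0.94 in the same order. ZNF367, a zinc finger gene, was at -3.81 after si-A2 at 24 h, and at -3.67, -3.91 and -1.01. RRM2, the small subunit of ribonucleotide reductase that makes deoxynucleotides, was at -2.88, and at -3.12, -3.76 and -1.56. All of these were called except the 4 values after si-A2 at 48 h, whose adjusted p lay between 0.0149 and 0.107. All 4 genes were also called between the siRNAs at 48 h, with si-A2 above si-A1 by 2.07 to 2.91 on the log2 scale.

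**Figure D4:**
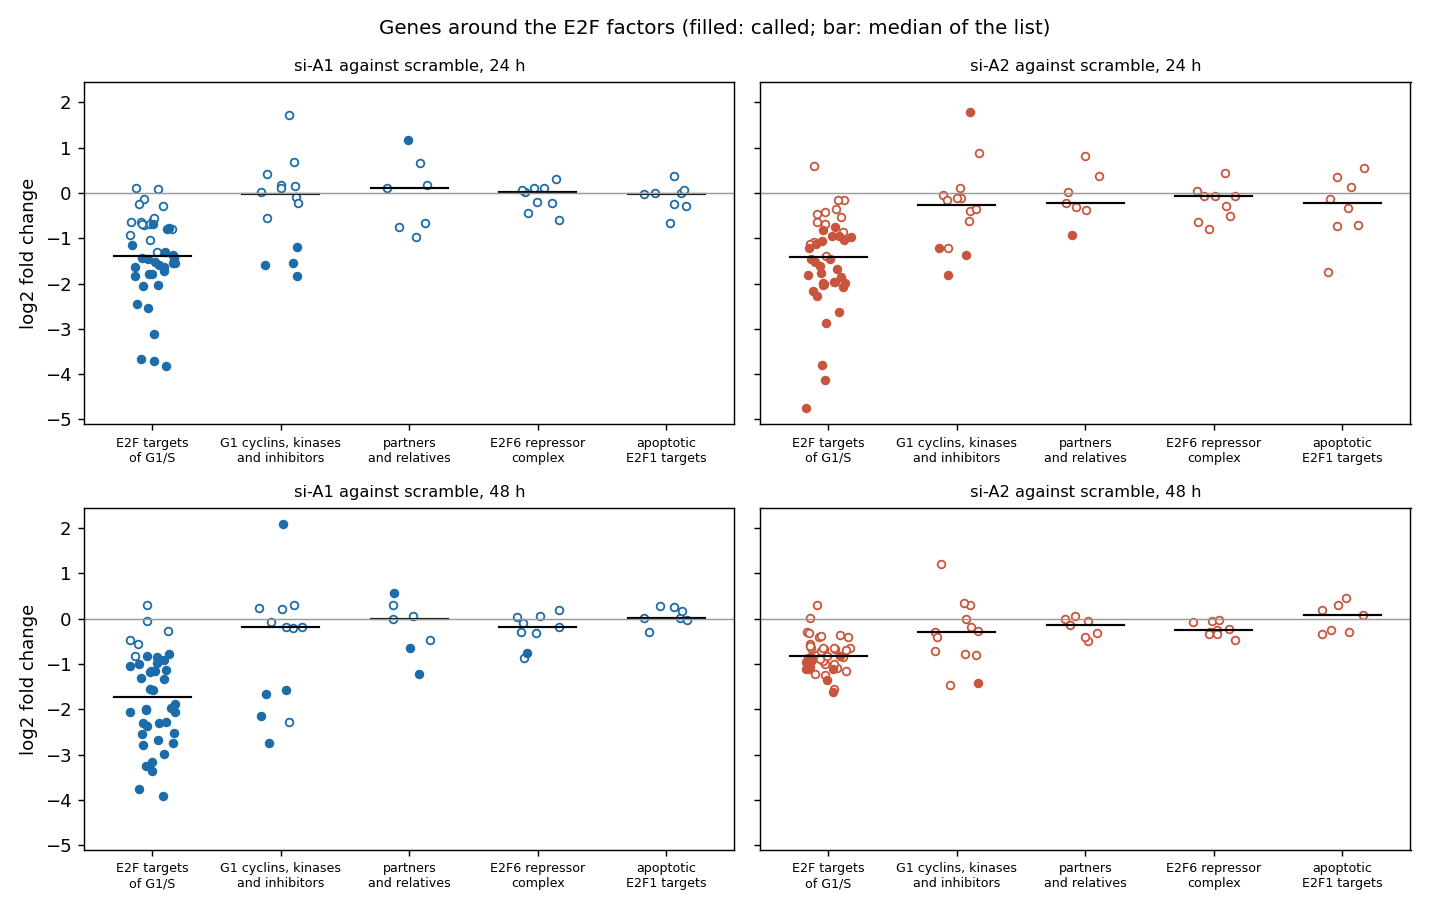
Log2 fold change from scramble of the genes tested in 5 lists, each gene by its brightest probe, after each siRNA at each time point. Filled points were called and black bars are list medians. The E2F targets of G1/S lie mostly below 0, with medians of -1.38, -1.42, -1.73 and -0.83, while the medians of the E2F6 repressor complex and the apoptotic E2F1 targets lie between -0.24 and 0.09.

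The letters shown above for the promoters of E2F1, E2F2 and E2F3 were also compared with the calls over all genes, as a description. At 24 h, 33 of 451 tested genes with a match in their 150 bases (7.32%) were called lower after si-A1, against 245 of 14245 genes without one (1.72%). After si-A2 at 24 h the shares were 7.76% and 1.51%. At 48 h they were 17.4% and 7.34% after si-A1 and 3.02% and 0.992% after si-A2. The median log2 fold change of the genes with a match was between -0.13 and -0.04 in these comparisons, so the typical gene with a match lay close to 0. The groups of genes also differ in ways other than these letters, such as base composition, which was not tested.

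Among 15 G1 cyclins, kinases and inhibitors, 14 were tested at 24 h and 13 at 48 h. CCNE2, the cyclin that completes the release from the retinoblastoma protein and also one of the targets above, fell after si-A1 (-1.55) and after si-A2 (-1.81) at 24 h and after si-A1 at 48 h (-2.73). CCND1, the cyclin that starts that phosphorylation, fell in the same 3 comparisons (-1.83, -1.22 and -1.56), and its value after si-A2 at 48 h was -0.70 (adjusted p = 0.0287). CDKN2C, an inhibitor of the cyclin D kinases, fell in all 4, by between 1.18 and 1.66 on the log2 scale. CDKN1A, the inhibitor p21, rose after si-A2 at 24 h (1.79, adjusted p = 9.65e-05) and after si-A1 at 48 h (2.10, adjusted p = 9.21e-05), and its values were 0.68 after si-A1 at 24 h (adjusted p = 0.0406) and 1.22 after si-A2 at 48 h (adjusted p = 0.0132). CCNE1 and CDK4 were not called in any of these. In all, 4 genes were called lower and none higher after si-A1 at 24 h, 3 lower and 1 higher after si-A2 at 24 h, 4 lower and 1 higher after si-A1 at 48 h and 1 lower after si-A2 at 48 h, beside 1.16%, 0.976%, 7.65% and 0.696% of all probes called in the same order.

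Few genes tied to the other roles of the family were called, but at the share called over all probes few calls would arise among so few genes. None of 8 apoptotic E2F1 targets (such as APAF1 and TP73) was called in any of the 4 comparisons with scramble. Of all probes, 1.16%, 0.976%, 7.65% and 0.696% were called, si-A1 before si-A2 at each time point, so no call is near the background. At an unadjusted p below 0.05 (limma) there were 0 of 8 after si-A1 and 5 of 8 after si-A2 at 24 h, and 2 of 7 after each at 48 h. After si-A2 at 24 h their median was -0.23 against 0.05 over all probes. Of 9 genes of the E2F6 repressor complex, CBX3, a reader of methylated histone H3, was called lower after si-A1 at 48 h (-0.75, adjusted p = 0.00665), where 4.67% of all probes were, so that 1 of 9 is near the background. None of the 9 was called in the other 3 comparisons with scramble, which is near the share called over all probes. At an unadjusted p below 0.05 (limma) there were 2 or 3 in each, and the share of all probes at that threshold was not counted. After si-A2 at 48 h all 9 values were below 0, with a median of -0.24 against 0.01 over all probes. At 24 h, 4 were below 0 after si-A1 and 7 after si-A2.

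Likeness was measured over the 12 arrays at 24 h, among 19248 genes, as the root mean square difference of log2 values after the scramble mean of each gene was subtracted. The genes most like E2F1 were the histone genes H3C2 (0.21), H2AC13 (0.23) and H2AC11 (0.24), whose near-identical copies a probe may not separate. E2F2 was most like E2F1 (0.41), H2AC13 (0.51) and H3C2 (0.52). The E2F7 probe A_32_P210202 was most like CDK1 (0.30), the kinase of mitotic entry, and the histone genes H3C11 (0.32) and H3C6 (0.33). These distances describe the same 12 arrays as the comparisons above and carry no test.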

How the data were processed

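Scans were read by the authors with Agilent Feature Extraction, and each deposited array file holds a processed intensity per spot, background-subtracted within the array on a linear scale. The authors also deposited a table of quantile-normalized log2 values per time point, used here as an alternative. Their notes name R 3.4.3 and limma 3.34.8. Here log2 intensities of noncontrol spots were quantile-normalized per time point, spots with outlier flags were dropped, and repeated spots were averaged. For the interaction term, the arrays of both time points were quantile-normalized together. RefSeq accessions named 57.4% of the probes at 24 h and, at 48 h, 53.4%. Testing required that 3 or more arrays had a probe above a threshold of 3 SDs over the mean of the 308 negative controls. In processed intensity this threshold ran from 3.63 to 50.8 at 24 h and, on the arrays used, from 4.51 to 257 at 48 h. It was highest on si-A2 replicate 1 (257) and scramble replicate 1 (160) at 48 h, whose median intensities were 26.4 and 26.1. Models used R 4.3.3 and limma 3.58.1 (lmFit, eBayes) over all 3 siRNAs with the slide as a term, and p-values were adjusted by Benjamini-Hochberg over all probes tested. The script was tested on simulated data. The mean signal column was not used, so normexp (offset 50) took the median signal. Replicates share numbers across siRNAs. At 48 h all 10 same-numbered pairs of arrays deviated together (correlations 0.24 to 0.43), but arrays of 1 slide with different numbers did so too (0.12 to 0.39). The main fits therefore kept the slide as the term, and the replicate number entered as a block only in alternative fits. At 24 h, 3 of 12 pairs exceeded 0.1. The members and gene lists were chosen with earlier results of these data known. The genes named are all members and all partners, the 4 called list genes of each other list with the largest change after si-A2 at 24 h and CDKN1A, and the 3 genes most like each called member. CBX3, CCNE1, CDK4 and the other examples were chosen after their values were seen. The interquartile range filter of the methods, other scalings, blocks, filters and probe rules, and each array left out were alternatives. Sample labels gave siRNA, time point and replicate number, and p-values measure the spread between these replicates.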

Additional observations from a re-analysis of the deposited data

Results flagged for a closer look

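Across 55 groups of 4 arrays and member probes, 6 had 1 array far from the other 3 (by Dixon's test of the gap over the range), and chance sets apart about 1 group in 20. On the log2 scale these were RB1 after si-A1 at 48 h (replicate 1, 1.66), E2F8 after si-A1 at 48 h (replicate 2, 1.02), E2F2 after si-A1 at 24 h (replicate 3, 4.11), E2F6 probe A_32_P12610 after si-A1 at 24 h (replicate 2, 6.92), and E2F6 probe A_33_P3416301 after si-A1 at 24 h (replicate 2, 7.75) and on the scramble arrays at 48 h (replicate 3, 7.62). The RB1 and E2F8 values lie at the background. For E2F2 the si-A2 effect differed between 24 h and 48 h in the interaction test, with a fitted value of 2.83 that is no measured size, since no si-A2 array was well above background at 24 h.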

How the results depend on the processing

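The decreases of E2F1, E2F2 and the E2F7 probe A_32_P210202 after both siRNAs at 24 h and after si-A1 at 48 h kept their direction under every alternative and were called whichever array was left out, but no member gene and no E2F target was called on 1 slide alone (0 in every such count at both time points), where fewer arrays enter. With only the 2 groups compared, 18 targets (si-A1) and 20 (si-A2) were called lower at 24 h, and the E2F7 probe missed the threshold after si-A2 (adjusted p = 0.017). Calls at 48 h depended more on the settings. With the dim array kept in, 1 member gene and 1 target were called after si-A1, no target after si-A2, no member gene between the siRNAs and none in the si-A2 interaction. After si-A2 at 48 h, normexp gave 1 member gene and 25 targets, no background correction 1 and 27, no slide term 4 targets, the replicate block 1, no filter on dim probes 2, only the 2 groups compared 0, a log2 fold change of at least 1 gave 5, and leaving out 1 array 0 to 4. Between the siRNAs at 48 h, 2 member genes were called without background correction and with the replicate block, 0 with only the 2 groups compared, and 0 to 2 with 1 array left out. In the si-A2 interaction it was 0 with 75th percentile scaling, normexp or no background correction, 2 with the replicate block and 0 to 2 with 1 array left out. The replicate block changed no other member count. Some values changed sign, of which only the increase of the brighter E2F7 probe after si-A1 at 48 h had been called. For the brighter E2F7 probe the values within slide 1 at 24 h were 0.15 (si-A1) and -0.0049 (si-A2), and the mean over probes gave -0.86 after si-A2 at 24 h, -0.79 after si-A1 at 48 h and -0.35 after si-A2 at 48 h, with -0.50 to 0.31 after si-A1 and -0.11 to 1.15 after si-A2 at 24 h when 1 array was left out. For E2F3 after si-A2 it was 0.038 within slide 2 at 24 h and 0.32 within slide 1 at 48 h, with -0.16 to 0.014 and -0.20 to 0.12 when 1 array was left out. For E2F6 after si-A2 at 48 h it was 0.20 within slide 1, with -0.17 to 0.030 when 1 array was left out. The si-A1 interaction of A_32_P210202 was -0.17 with 75th percentile scaling, -0.025 with normexp and -0.027 without background correction, with -0.22 to 0.21 when 1 array was left out. The cause of these shifts was not tested. Signals near background limit E2F2 after knockdown, RB1 and E2F8.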
